A study of Drosophila melanogaster with 10 samples.

Results

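The piRNA pathway genes described here are 10 genes chosen by name: piwi, aub, AGO3, zuc, armi, vas, spn-E, qin, krimp and rhi. They were found by their symbols in the deposited expression table of Drosophila S2 cells, where all 10 had a row, with 18 transcript entries between them, of 15240 gene symbols and 30551 entries in all. The study asked what polymerization of Polyhomeotic (Ph), one of the Polycomb group proteins, does to chromatin and gene expression in S2 cells, a cultured line derived from embryos. Its series holds 10 samples, in 5 groups of 2 replicates, of which 8 samples (chromatin immunoprecipitation and input libraries of cells expressing wild-type or polymerization-defective Ph) were not analysed here. The values below come from the remaining group, total RNA depleted of ribosomal RNA from S2 cells of wild-type genotype, which per the labels were kept with copper sulphate (0.5 mM) over a period of 3 days. The study treated its parental S2 cells with copper in the same way as its transgenic lines, so no library without copper enters these values. All libraries stem from 1 cell line, and with 1 group of 2 libraries no comparison between conditions and no test across samples was possible.

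PIWI-interacting RNAs (piRNAs) are small RNAs that guide Argonaute proteins of the PIWI clade to the transcripts of transposable elements, chiefly in the gonads. In the Drosophila germline, Aubergine and Argonaute 3 cut transposon and precursor transcripts in turn, a cycle called ping-pong that runs in a perinuclear structure called nuage, while Piwi acts in the nucleus. Follicle cells of the ovary run a simpler pathway around Piwi, without the ping-pong cycle. S2 cells resemble plasmatocytes, the phagocytic blood cells, and so belong to neither gonadal lineage.

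Levels are given as RPKM, reads scaled to transcript length and library size, for each entry and library. A gene with several entries is given by the median over them, with the SD between the 2 libraries as its error. Whole reads leave steps in the values, and these put the depth of replicate 1 at 37054213 reads and that of replicate 2 at 9495835, so replicate 1 is the more precise. Across all genes the Pearson r of log2(RPKM + 1) between the libraries was 0.992, a correlation across genes and not across samples. Read counts quoted below are the smallest whole numbers that fit the values, and the 95% intervals are exact Poisson intervals on those reads, which cover counting error only.

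The 10 genes fell into a set of 7 whose mean was at least 1 RPKM and a set of 3, vas, qin and rhi, near 0.1 RPKM. Of all 15240 genes, 49.5% reached 1 RPKM. At 5 RPKM or more were 4 members, armi, krimp, AGO3 and aub, and 29.5% of all genes. The median level of the 10 genes was 3.28 RPKM, and that of all genes was 0.898 RPKM, averaged over the libraries on the log2(RPKM + 1) scale.

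All 3 genes of PIWI-clade Argonautes, the proteins that carry piRNAs, had reads in both libraries, but at unequal levels. AGO3, the ping-pong partner of Aubergine, had 11.7 and 12.0 RPKM in replicates 1 and 2, or 11.9 ± 0.225 RPKM (SD, n = 2). aub had 5.15 and 4.96 RPKM, or 5.05 ± 0.132 RPKM. piwi, which encodes the nuclear member of the clade, had 1.44 and 1.30 RPKM, or 1.37 ± 0.0977 RPKM. The libraries of each gene lay close together and the ranges of the 3 genes did not overlap. In the same library AGO3 stood 2.27-fold over aub in replicate 1 and 2.42-fold in replicate 2, a mean log2 ratio of 1.23 ± 0.07 (SD, n = 2). Over piwi it stood 8.11-fold and 9.22-fold, a mean log2 ratio of 3.11 ± 0.13, and aub over piwi had a mean log2 ratio of 1.88 ± 0.06. The piwi value rested on at least 164 and 38 reads, with counting intervals of 1.23 to 1.68 RPKM and 0.923 to 1.79 RPKM. These intervals do not cover reads from SCAR, a gene at 15.4 and 15.8 RPKM that overlaps piwi. How much of the piwi level comes from that overlap was not tested.

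Of the 10 genes, zuc and armi act in piRNA biogenesis at the surface of mitochondria, and each had reads in both libraries. zuc encodes Zucchini, the endonuclease that cuts precursor transcripts, and armi encodes Armitage, an RNA helicase that delivers precursors to that step. zuc had 3.09 and 2.90 RPKM, or 2.99 ± 0.136 RPKM (SD, n = 2). armi was the highest of the 10 genes and had 15.9 RPKM in the first library against 12.4 RPKM in the second, or 14.2 ± 2.48 RPKM. In each library armi was the higher of the pair, 5.16-fold in replicate 1 and 4.29-fold in replicate 2.

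The nuage and ping-pong genes were split. krimp, whose Tudor domain protein Krimper brings Aubergine and Argonaute 3 together, had 12.3 and 13.0 RPKM, or 12.7 ± 0.526 RPKM (SD, n = 2). spn-E, a putative RNA helicase with a Tudor domain, had 4.76 RPKM in the first library and 2.67 RPKM in the second, or 3.71 ± 1.48 RPKM. Of the 7 genes that reached 1 RPKM it varied most for its level. vas encodes the DEAD-box helicase Vasa, the classic marker of germ cells, and had 0.128 and 0.0470 RPKM. qin, a Tudor domain protein with a RING domain, had 0.128 and 0.0691 RPKM. krimp and spn-E thus stood more than an order of magnitude above vas and qin in both libraries.

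rhi encodes Rhino, a germline member of the heterochromatin protein 1 family that marks piRNA clusters for transcription. It had 0.138 and 0.0671 RPKM. These values rested on at least 8 and 1 reads. The best covered vas entry rested on 11 and 1 reads or more, and qin on 29 and 4 or more. The counting intervals in replicate 2 ran from 0.00170 to 0.374 RPKM for rhi and from 0.0188 to 0.177 RPKM for qin. For rhi and the vas entries the replicate 2 values lay under the level of 3 reads, which is 0.201 RPKM for rhi. The order of the 3 genes was therefore not detectable at this depth. In bulk RNA, few cells with such a transcript and little of it in each cell cannot be told apart.

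**Figure D1:**
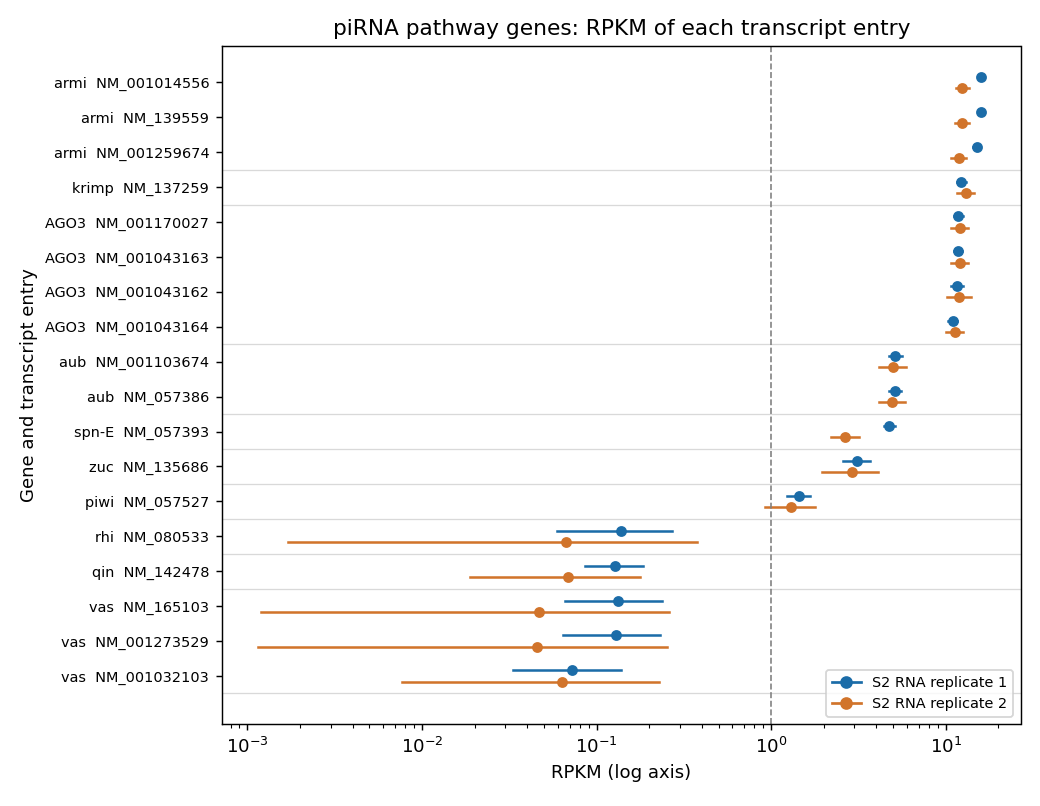
RPKM (log axis) of the 18 transcript entries of the 10 genes, ordered by gene level, in S2 RNA replicate 1 (blue) and replicate 2 (orange). Points are deposited values, bars are exact 95% Poisson intervals on the recovered reads, and the dashed line marks 1 RPKM. Recovered reads are minimum values, so a bar can be too wide. The entries of vas, qin and rhi lie between 0.0456 and 0.138 RPKM with wide intervals, and those of the other 7 genes lie above 1 RPKM.

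Ordered by mean level, the genes ran armi, krimp, AGO3, aub, spn-E, zuc, piwi, rhi, qin, vas. armi and krimp did not differ beyond their spread, since armi was 1.30-fold higher in replicate 1 and 0.953 times krimp in replicate 2. krimp exceeded AGO3 by 1.05-fold in replicate 1 and 1.08-fold in replicate 2. The counting interval of krimp in replicate 1, 11.6 to 13.0 RPKM, overlapped that of 3 of the 4 AGO3 entries, which reached 12.4 RPKM or more, and only just that of the longest, which ended at 11.6 RPKM. The AGO3 entry with at least 604 reads, where the others had at least 1196, may have too wide an interval. The step from AGO3 to aub was larger than the spread of either gene. aub and spn-E were 1.08-fold apart in replicate 1 and 1.86-fold in replicate 2, a mean log2 ratio of 0.50 ± 0.55 (SD, n = 2), which is within its SD. spn-E and zuc changed places between the libraries. zuc exceeded piwi by 2.14-fold and 2.22-fold, a mean log2 ratio of 1.13 ± 0.04, and piwi in turn was above the replicate range of rhi, qin and vas.

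The members of the set stood at widely different positions among all genes. armi was higher than 88.7% of all genes, krimp than 87.2% and AGO3 than 86.4%. aub stood above 70.8%, spn-E above 64.8% and zuc above 61.3%. piwi stood above 53.0% of all genes, but above 5.06% of those that reached 1 RPKM. rhi, qin and vas stood above 31.3%, 31.0% and 29.8% of all genes.

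**Figure D2:**
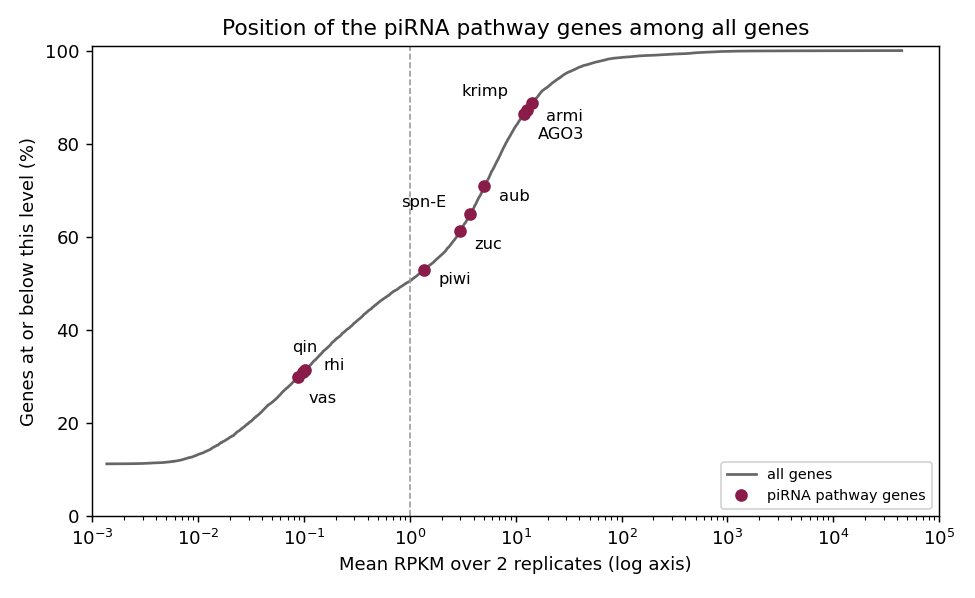
Cumulative share of all 15240 genes (%, vertical axis) by mean RPKM over the 2 replicates (log axis), with the 10 genes marked as points and 1 RPKM as a dashed line. The line starts above 0% because genes listed at 0 are not drawn on the log axis. armi, krimp and AGO3 sit between 86.4% and 88.7%, piwi sits at 53.0%, and vas, qin and rhi sit between 29.8% and 31.3%.

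Several of the genes have more than 1 transcript entry, and these entries share reads, so they are not separate measurements. The 3 armi entries had at least 2451, 2452 and 2028 reads in replicate 1 and 490, 490 and 411 in replicate 2. The longest pair differed by 17 bases in recovered length and 1 read in replicate 1. The shortest entry, at 3631 bases, lacked 505 bases and 423 reads of the next, and its level was 13.5 ± 2.23 RPKM (SD, n = 2). The 4 AGO3 entries ranged in mean from 11.1 to 12.0 RPKM, a 1.08-fold range, and the aub entries were 1.01-fold apart. No entry of these 3 genes therefore stood apart from the others of its gene by more than 1.08-fold.

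The 3 entries under the symbol vas do not all belong to that gene in current annotation. The transcript at 0.0728 and 0.0631 RPKM is assigned by RefSeq, on Release 6 of the genome, to solo, a gene that shares its locus with vas and is known for a part in the cohesion of meiotic chromosomes. The entries that Release 6 leaves to vas had 0.132 and 0.0470 RPKM, and 0.128 and 0.0456 RPKM. Without the solo entry vas stood at 0.130 and 0.0463 RPKM in the libraries, within the spread of the value given above.

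On the Release 6 map, 8 of the 10 genes overlap another gene. Whether strand was used in counting is not stated, so reads from overlapping stretches cannot be assigned. piwi overlaps SCAR, an actin regulator at 15.4 and 15.8 RPKM, which was over 10 times the level of piwi. vas has vig, at 23.3 and 29.2 RPKM, within its locus. aub overlaps CG16833 at 5.35 and 4.93 RPKM, zuc overlaps CG34163 at 6.68 and 3.98 RPKM, and spn-E overlaps Pbp45 at 1.18 and 1.38 RPKM. The locus of qin holds several genes, of which CG31224 had 5.80 and 5.12 RPKM, far above qin in both libraries, and rhi overlaps CG10936 at 0.0402 and 0.0196 RPKM. armi, the highest of the 10 genes, overlaps CG46463, for which no level was found. How much of each level comes from the overlap was not tested. AGO3 and krimp, next to armi in mean level, overlap no other gene on that map.

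The libraries were then compared gene by gene. As deposited, 8 of the 10 genes were lower in replicate 2, where 8046 of all genes were lower and 5480 higher. The genes counted as lower include those listed at 0 in replicate 2, the shallower library, alone. In all, 4052 genes were at 0 in replicate 2 and 1714 in both libraries. Over genes at 1 RPKM or more the median log2 difference was 0.0146. For each of 11062 genes, an exact binomial test (two-sided) asked whether replicate 2 held its overall share of reads, 20.4%, with Benjamini-Hochberg adjustment over all of them. It compares these libraries and not a condition, and sets their difference against counting error alone, so a deeply covered gene can be called for a small variation between libraries. It called 2 of the 10 genes, armi and spn-E, both lower in replicate 2, where 11.6% of all genes tested were called, and 4.26% were called lower in replicate 2. Among the 6082 genes with at least the 160 reads of zuc, 19.9% were called, and of the 7 members with that many reads, 2 were.

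spn-E had at least 822 and 118 reads in the libraries, 1.79-fold lower in replicate 2 after scaling to library size (exact binomial test, adjusted p = 1.48e-08). Its difference on the log2(RPKM + 1) scale was -0.65, and 3.30% of genes at 1 RPKM or more had a larger one in either direction. armi had at least 2452 and 490 reads, 1.28-fold lower in replicate 2 (exact binomial test, adjusted p = 7.95e-06). Its log2 difference was -0.33, which 18.4% of those genes exceeded. When replicate 2 was scaled to the median of replicate 1 over all genes, the call of armi was lost (exact binomial test, adjusted p = 0.146). AGO3 and krimp were then called higher in replicate 2, and spn-E stayed called lower. That scaling multiplied replicate 2 by 1.16, whereas the median log2 difference over genes at 1 RPKM or more gave a factor of 0.990.

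The remaining 5 genes above 1 RPKM kept within 1.11-fold between the libraries. The exact binomial test gave adjusted p-values of 0.725 for krimp, 0.943 for AGO3, 0.945 for aub and 0.938 for piwi, with 1 for zuc. Most markers of germ cells and of blood cells were lower in replicate 2, where 8046 of all genes were lower and 5480 higher. Both counts of lower genes include genes listed at 0 in the shallower replicate 2 alone, among the markers otu and He. Of 9 germ cell genes, 7 were lower, and their summed level was 5.59 and 4.25 RPKM in replicates 1 and 2. Of the 8 that could be tested, 1, bgcn, was called (exact binomial test, adjusted p = 0.0405). Of 10 blood cell genes, 9 were lower, and their summed level was 135 and 126 RPKM. Of the 9 that could be tested, 1, vkg, was called (exact binomial test, adjusted p = 0.0314). Of all genes tested, 11.6% were called. The part of these markers in the difference of spn-E was not tested.

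**Figure D3:**
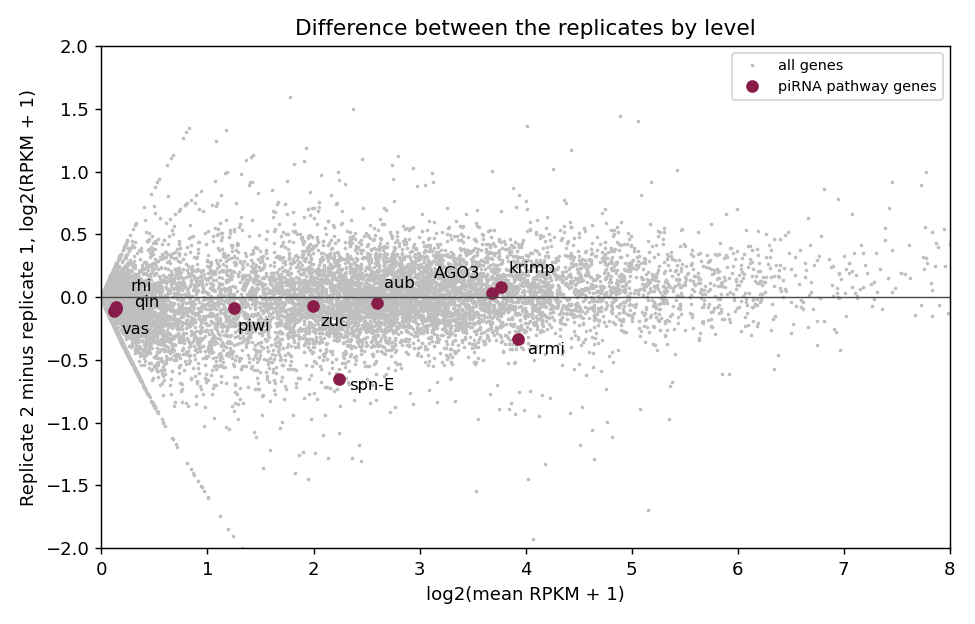
Difference between the libraries (replicate 2 minus replicate 1, log2(RPKM + 1), vertical axis) by level (log2 of mean RPKM + 1, horizontal axis) for all genes in grey and the 10 genes in dark red, with 132 genes outside the axes. spn-E at -0.65 and armi at -0.33 lie below the others of the set, which run between -0.11 and 0.08.

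Most of the other piRNA genes listed here had levels of 1 RPKM or more as well. This list and those below were chosen with earlier results of these data known. Of 23 other piRNA genes, 21 reached 1 RPKM and 13 reached 5 RPKM, where 49.5% and 29.5% of all genes did. Their median was 5.52 RPKM. The test between the libraries called 4 of the 22 that could be tested, with mino and boot higher and BoYb and tapas lower in replicate 2, where 11.6% of all genes tested and 19.9% of those with at least 160 reads were called.

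Among the 15 genes for biogenesis and nuage, 14 reached 1 RPKM, against 49.5% of all genes. tud, founder of the Tudor domain family that binds methylated PIWI proteins, was far the highest at 61.8 and 61.5 RPKM. mino, a mitochondrial acyltransferase (listed as CG5508), had 15.0 and 18.4 RPKM, squ 13.2 and 13.2 RPKM, and the co-chaperone gene shu 11.8 and 11.4 RPKM. Of these 4 genes, shu alone lay below AGO3 in mean level. The Tudor domain genes papi and tapas (CG8920) had 8.08 and 8.15 RPKM and 8.67 and 7.34 RPKM. Nbr, an exonuclease that trims small RNAs, had 7.45 and 7.88 RPKM, and Hen1, the methyltransferase that acts on the ends of piRNAs, had 4.65 and 3.94 RPKM. These lay between aub and AGO3, apart from Hen1, which was below aub.

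mael had 5.35 and 6.21 RPKM and vret 5.54 and 5.49 RPKM. The mitochondrial scaffold gene Gasz (CG2183) had 2.33 and 3.48 RPKM. Of the Yb family, SoYb had 4.22 and 4.23 RPKM, fs(1)Yb, known for the Yb bodies of ovarian follicle cells, had 3.14 and 3.22 RPKM, and BoYb had 1.66 and 0.983 RPKM. In mean level mael, vret and SoYb were above spn-E, and Gasz, fs(1)Yb and BoYb were below it. The lowest of the list was tej, a nuage Tudor gene, at 0.0556 RPKM in replicate 1 and listed at 0 in replicate 2.

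Rhino works with partners, and most of these had reads where rhi had few. del, whose product Deadlock binds Rhino directly, had 4.27 and 5.39 RPKM, and cuff, which protects cluster transcripts from processing, had 2.52 and 1.63 RPKM. The export factors boot (CG13741) and Nxf3 had 6.12 and 8.88 RPKM and 13.2 and 12.9 RPKM. moon (CG12721), which starts transcription in clusters, had 0.299 and 0.519 RPKM, above rhi in both libraries but under 1 RPKM. In contrast to rhi, 4 of these 5 genes reached 1 RPKM, against 49.5% of all genes.

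The genes that act with Piwi in nuclear silencing were each above piwi itself. nxf2 had 5.55 and 5.70 RPKM, arx (CG3893) had 5.17 and 5.31 RPKM, and Panx (CG9754) had 3.39 and 3.03 RPKM. The ranges of these genes did not overlap that of piwi.

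The closest pathway for comparison is that of microRNAs and short interfering RNAs, which uses Argonautes of the AGO clade and runs in somatic cells. All 8 genes of that list reached 1 RPKM, against 49.5% of all genes, and their median was 6.16 RPKM. They ran from pasha at 1.90 ± 0.384 RPKM to AGO2 at 36.8 ± 1.52 RPKM (SD, n = 2). AGO1, the microRNA Argonaute, had 12.2 and 12.5 RPKM and was 1.04 times AGO3 in each library. AGO2, which carries short interfering RNAs, was 3.05-fold over AGO3 in replicate 1 and 3.15-fold in replicate 2. Summed over the PIWI clade, levels were 18.3 RPKM in both libraries, and over AGO1 and AGO2 they were 47.9 and 50.4 RPKM. The exact binomial test called none (0) of the 8 genes between the libraries. Of all genes tested 11.6% were called, and of those with at least 160 reads 19.9%. An unadjusted p under 0.05 was found for 1 of the 8, and for 2321 of the 11062 genes tested.

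Of 12 cofactors that the piRNA pathway shares with other processes, all reached 1 RPKM, against 49.5% of all genes. Their median was 7.37 RPKM. They ranged from wde at 2.13 ± 0.0884 RPKM to the chaperone gene Hsp83 at 993 ± 169 RPKM (SD, n = 2). egg, the histone H3 methyltransferase recruited to Piwi targets, had 5.76 and 5.94 RPKM, and Hel25E, an RNA helicase of mRNA export that also serves clusters, had 58.2 and 59.2 RPKM. Of the 12, 3 were called between the libraries, Hsp83 and Su(var)2-10 higher and Trf2 lower in replicate 2, beside 11.6% of all genes tested and 19.9% of those with at least 160 reads.

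**Figure D4:**
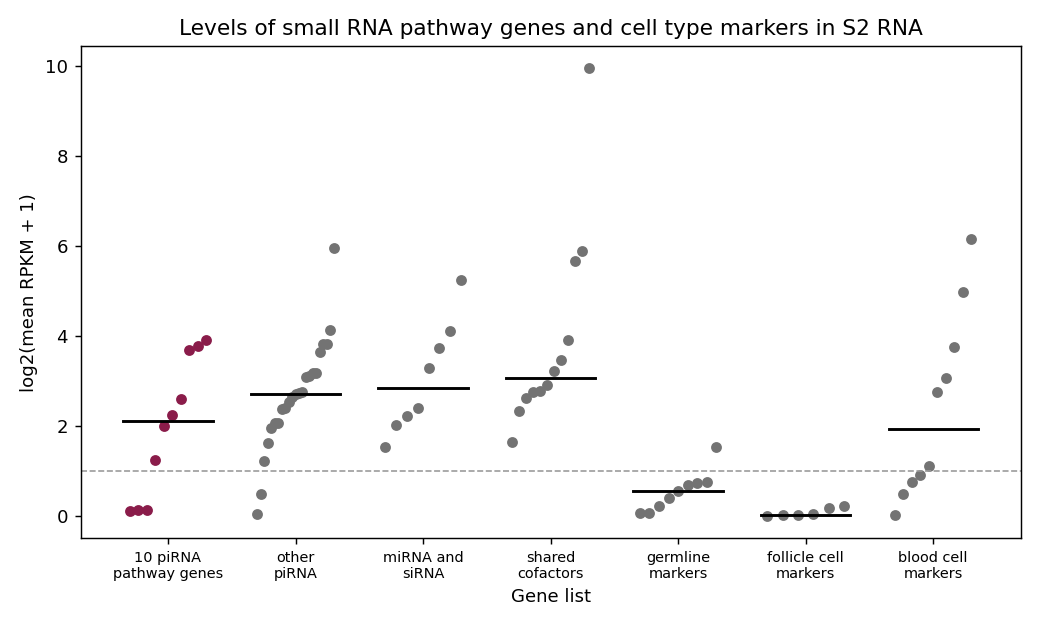
Levels, as log2 of mean RPKM + 1, of each gene (points) in the 10 piRNA pathway genes, in other small RNA and cofactor lists, and in marker lists; bars are list medians and the dashed line is 1 RPKM. The 10 genes split into 3 near 0 and 7 above the line, whereas 21 of 23 other piRNA genes and all 8 microRNA and short interfering RNA genes lie above it. Of all genes, which are not drawn, 49.5% reached 1 RPKM. The lists were chosen with earlier results of these data known.

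Markers were used to check the label of the cells. Of 10 blood cell markers, 6 reached 1 RPKM, against 49.5% of all genes. Pvr had 72.6 and 69.5 RPKM, crq 32.1 and 29.0 RPKM, and eater 13.1 and 11.8 RPKM in replicates 1 and 2. The 4 under 1 RPKM in mean level were He, at 0.0401 RPKM in replicate 1 and listed at 0 in replicate 2, Pxn at 0.529 and 0.267 RPKM, Cg25C at 0.739 and 0.649 RPKM, and vkg at 1.08 and 0.663 RPKM. Of these, He lay below the mean of every germ cell marker and the other 3 lay within their range, so part of the blood cell list was high and part was not. Of the 9 germline markers, gcl alone reached 1 RPKM, at 1.90 ± 0.0356 RPKM (SD, n = 2), and the means of the other 8 lay between 0.0416 and 0.677 RPKM, with otu, ovo and orb lowest. None (0) of 6 follicle cell markers reached 1 RPKM. Their summed level was 0.479 and 0.251 RPKM, tj had 0.00773 and 0.0302 RPKM, slbo was listed at 0 in both libraries, and 4 were listed at 0 in replicate 2.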

How the data were processed

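Total RNA of S2 cells (2 replicates) was depleted of ribosomal RNA and sequenced as single-end reads, which the study aligned with TopHat to release 5 of the genome. The processing notes of the submitters name TopHat2 2.4, BWA 0.5.9-r16 and the build dm3. The deposited values are RPKM, computed by the authors per RefSeq transcript with replicates kept apart. The program used, and the handling of reads that align to several places or are shared by isoforms, are not given in the sources used here.

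Differences between the libraries on a log scale used log2(RPKM + 1), a pseudocount of 1, which understates differences of genes near 0. Ratios between genes of a library used RPKM with no pseudocount. No filter on low values was applied. Of 23661 entries with values above 0 in each library, 99.8% gave whole reads (relative tolerance 1e-06). The library size was the largest at which transcript lengths came out whole within 0.01 bases (74.8% of 4000 entries, against 37.0% at double that size), and a common factor of up to 10 was restored where it made a length whole. Reads and lengths are minimum values. The binomial test used these reads, so where the true reads are a multiple of them it had too few and could miss a difference. Entries at 0 in either library were not tested. The entry with the most reads stood for a gene. The recovery and the test were tested on simulated data. Analyses used Python 3.11.15, numpy 2.4.6, pandas 2.3.3 and scipy 1.17.1.

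Members and lists (other piRNA genes, shared cofactors, microRNA and siRNA genes, and germline, follicle cell and blood cell markers) were chosen with earlier results of these data known. The text names the 10 members and some genes of the lists. These were taken from the genes at 1 RPKM or more and the 3 lowest of each list, and not all of those are named. The markers bgcn and vkg, the genes that overlap members and those of the HP1 and Stellate families were named after their values were seen. Names and overlaps of genes were taken from RefSeq on the assembly Release 6 plus ISO1 MT, with no coordinates, since the reads were aligned to another release. Nothing says that the replicates came from separate cultures other than the statement of the study that they are biological replicates. Alternatives covered the threshold, pseudocount, transcript choice, scaling, a filter on low values and each replicate left out.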

Additional observations from a re-analysis of the deposited data

How the results depend on the processing

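No paired analysis was possible because values of 1 group were analysed, and no result comes from a test between groups. A threshold of 5 RPKM in place of 1 RPKM gave 4 in place of 7 of the 10 genes, 13 in place of 21 other piRNA genes and 4 in place of 8 microRNA and siRNA genes, since a higher threshold admits fewer genes. A minimum mean of 0.5 RPKM, which leaves out vas, qin and rhi, moved the median level of the 10 genes to 5.05 RPKM. Leaving out 1 replicate gave a median level from 2.78 to 3.85 RPKM and left 7 of the 10 genes at 1 RPKM. For the other piRNA genes it gave from 20 to 21. Scaling replicate 2 to the median of replicate 1 over all genes multiplies it by 1.16, a shift of 0.21 on the log2 scale. With it, 5 in place of 8 of the 10 genes were lower in replicate 2. The medians over all genes, 0.973 and 0.839 RPKM in replicates 1 and 2, lie under 1 RPKM, and 4052 genes were listed at 0 in replicate 2. The median log2 difference over genes at 1 RPKM or more gave a factor of 0.990 instead. Under the scaling by 1.16, chosen for the binomial test after the data were seen, 22.1% of all genes were called. armi was not called (exact binomial test, adjusted p = 0.146), and AGO3, krimp and spn-E were. Under the 3 other alternatives of that test armi and spn-E were called, with adjusted p-values of at most 7.95e-06 and 1.49e-08. Depth limits vas, qin and rhi, with 1 to 4 reads in replicate 2.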

Other observations

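Rhino belongs to the heterochromatin protein 1 (HP1) family, whose other members were looked up after the values of rhi were seen. The gene of HP1a, the canonical member found at centromeric heterochromatin, had 51.5 RPKM in replicate 1 and 48.6 RPKM in replicate 2. HP1b had 6.09 and 7.83 RPKM and HP1c had 4.28 and 5.71 RPKM. HP1e, a gene known from the male germline, was listed at 0 in both libraries, beside rhi at 0.138 and 0.0671 RPKM. The members known from somatic cells were thus all above 4 RPKM in both libraries, and those known from the germline were at or below 0.138 RPKM.

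The Stellate genes of the X chromosome are the best known targets of piRNAs in the testis, where the Su(Ste) repeats give rise to the piRNAs that silence them. All 13 Stellate genes (Ste and SteXh) and all 42 Su(Ste) genes in the table were listed at 0 in both libraries. These are near-identical repeats, and how reads that align to several copies were counted is not stated. The part of that counting in the zeros was not tested.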
